A study of Homo sapiens with 6 samples.

Results

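The mitochondrial ribosomal protein genes were followed in the human acute myeloid leukaemia line HL-60, in 3 RNA libraries of cells with an shRNA to OSGEP, labelled as its knockdown, and 3 of cells with a control shRNA, labelled WT. Members were taken as protein-coding genes whose symbol is MRPL or MRPS followed by a number, plus DAP3, and 79 of the 58302 genes in the count tables met this rule, 49 with MRPL names and 30 with MRPS names or DAP3. OSGEP makes the t6A modification of tRNAs beside the anticodon, and the study looked in leukaemia cells for pathways of proliferation, cell cycle and apoptosis tied to its loss. Whether the lines were clones, how many hairpins were used and whether replicates were grown separately is not given in the sources used here. The p-values therefore rest on differences among these 6 libraries, and that spread may be technical.

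The mitochondrial ribosome translates the few mRNAs that mitochondrial DNA encodes, all of them for subunits of the respiratory chain and ATP synthase. Its rRNAs come from mitochondrial DNA, but its proteins are encoded in the nucleus, made by cytosolic ribosomes and imported. The names do not always give the subunit: MRPS30 and MRPS18A sit in the large subunit, and MRPS36 is known as a component of the oxoglutarate dehydrogenase complex. Leukaemic myeloid cells are known for a high demand for mitochondrial translation.

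Some promoter motifs were more frequent in the members than in the protein-coding genes tested, though none stood in most member windows. Of the 79, 70 had promoter windows in the RefSeq table (GRCh38.p14, 250 bases before to 50 bases after a start), 87 windows in all. The letters AAGATGGC, a core of the YY1 site, stood on either strand in 26.4% of these windows and in 5.08% of 13461 windows of the protein-coding genes tested (2.89% of all 35116 windows). The ETS core CCGGAAG stood in 37.9% of member windows, against 17.8% and 10.3%. The NRF1 core GCATGCGC stood in 6.9%, against 4.92% and 3.05%, and the E-box CACGTG in 10.3%, against 9.54% and 7.26%. The letters of one motif do not contain those of another. A match describes the letters of the window, not a bound site. The 250 bases before the start are printed for the member that rose, the member that fell and the member with the most reads, 5′ to 3′ on the gene's strand, with matches to the motif letters in capitals. MRPL52 is chr14:22829637-22829886 on the plus strand, with 1 NRF1 and 2 YY1 matches, MRPS27 is chr5:72320241-72320490 on the minus strand, with none, and MRPS10 is chr6:42217862-42218111 on the minus strand, with 1 ETS match.
MRPL52: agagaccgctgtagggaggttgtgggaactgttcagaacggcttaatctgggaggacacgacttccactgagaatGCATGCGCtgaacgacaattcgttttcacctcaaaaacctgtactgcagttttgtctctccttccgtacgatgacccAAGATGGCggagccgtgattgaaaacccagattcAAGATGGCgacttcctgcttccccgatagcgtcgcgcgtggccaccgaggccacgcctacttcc
MRPS27: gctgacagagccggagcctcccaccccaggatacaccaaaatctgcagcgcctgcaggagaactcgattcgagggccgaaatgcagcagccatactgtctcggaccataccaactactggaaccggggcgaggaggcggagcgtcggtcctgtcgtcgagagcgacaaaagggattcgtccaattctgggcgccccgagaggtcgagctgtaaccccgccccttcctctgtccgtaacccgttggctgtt
MRPS10: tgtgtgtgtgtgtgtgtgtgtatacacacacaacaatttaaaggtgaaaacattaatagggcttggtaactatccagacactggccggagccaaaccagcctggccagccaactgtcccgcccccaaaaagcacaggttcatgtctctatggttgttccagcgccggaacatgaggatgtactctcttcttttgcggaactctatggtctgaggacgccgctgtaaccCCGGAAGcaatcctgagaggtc

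Levels are given as CPM, read counts divided by the library's total in megareads, after TMM normalisation, a scaling that equalises the bulk of genes between libraries. Total counts ran from 8326982 to 10157091 per library. OSGEP itself stood at 21.18, 23.11 and 20.87 CPM in knockdown libraries 1, 2 and 3 and at 49.05, 54.41 and 76.92 CPM in control libraries 1, 2 and 3, so the groups did not overlap (log2 fold change -1.47, SE 0.21, edgeR adjusted p = 0.000228). All 12 listed myeloid markers were tested, and 5 of them fell (MPO, ELANE, AZU1, PRTN3 and CSF3R) and 0 rose. Their summed level was 3240 to 3420 CPM in the controls and 1480 to 1530 CPM in the knockdown. Yet 4 of the 12 had a positive log2 fold change, none of them called. Among these, LYZ stood at 154 ± 37.2 and 216 ± 16.9 CPM, higher in every knockdown library (log2 fold change 0.49, edgeR adjusted p = 0.0534). SPI1 (-0.14), CD33 (-0.03) and CTSG (-0.72) lay below 0 and were not called. The 9 lymphoid markers summed to 87.3 to 101 CPM in the controls and 32.3 to 37.7 CPM in the knockdown, most of it NKG7. CD3D, CD3E and CD79B were each below 1 CPM in every library, and no lymphoid marker was at 0 in all of them. IL7R stood at 1.89 and 3.35 CPM and MS4A1 at 2.71 and 2.62 CPM in controls and knockdown, neither called. CD2 stood at 0.732 and 3.67 CPM and CD79A at 1.32 and 0.228 CPM, neither tested. The 9 erythroid markers summed to 20.3 to 24.3 and 9.18 to 19 CPM, with HBG1 at 0 in all libraries, and the 10 epithelial and mesenchymal markers to 88 to 108 and 93.7 to 103 CPM, with none at 0 in all libraries. Members of the last list differed: CDH1 rose from 3.89 to 11.8 CPM, while KRT8 stood at 8.31 and 19.1 CPM and PECAM1 at 66.2 and 46.7 CPM, neither called. Of the tested lymphoid markers NKG7 fell, and of the erythroid ones none was called at an edgeR adjusted p under 0.05. The part of these shifts in the results that follow was not tested. In bulk RNA, fewer cells of a type and less RNA per cell cannot be told apart.

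Few mitochondrial ribosomal protein genes passed the test. Of the 77 that passed the filter on low counts, 1 rose (MRPL52) and 1 fell (MRPS27) at an edgeR adjusted p under 0.05, where 10.8% of all 14018 genes tested were called, 5.19% higher and 5.56% lower. Most members lay a little above 0: 55 of 77 had a positive log2 fold change, or 71.4%, against 50.3% of all genes tested, and their median was 0.13 against 0.01. The other 22 lay below 0, against 49.7% of all genes. The middle of the distribution was narrow, with quartiles of -0.03 and 0.32 where all genes had -0.35 and 0.38. At an unadjusted p under 0.05 there were 10 higher and 3 lower members, where 11% and 11.9% of all genes stood. Control and knockdown libraries did not overlap for 17 members, with the knockdown above for 13 (13.3% of all genes) and below for 4 (15.6% of all genes). All genes tested include many with few reads. At a mean CPM of at least 20, 1 of 62 members rose and 1 fell, where 507 of 6719 genes rose and 656 fell. At that level 74.2% of members and 46.8% of genes were positive. Their quartiles were -0.003 and 0.29 for the members and -0.29 and 0.24 for the genes.

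**Figure D1:**
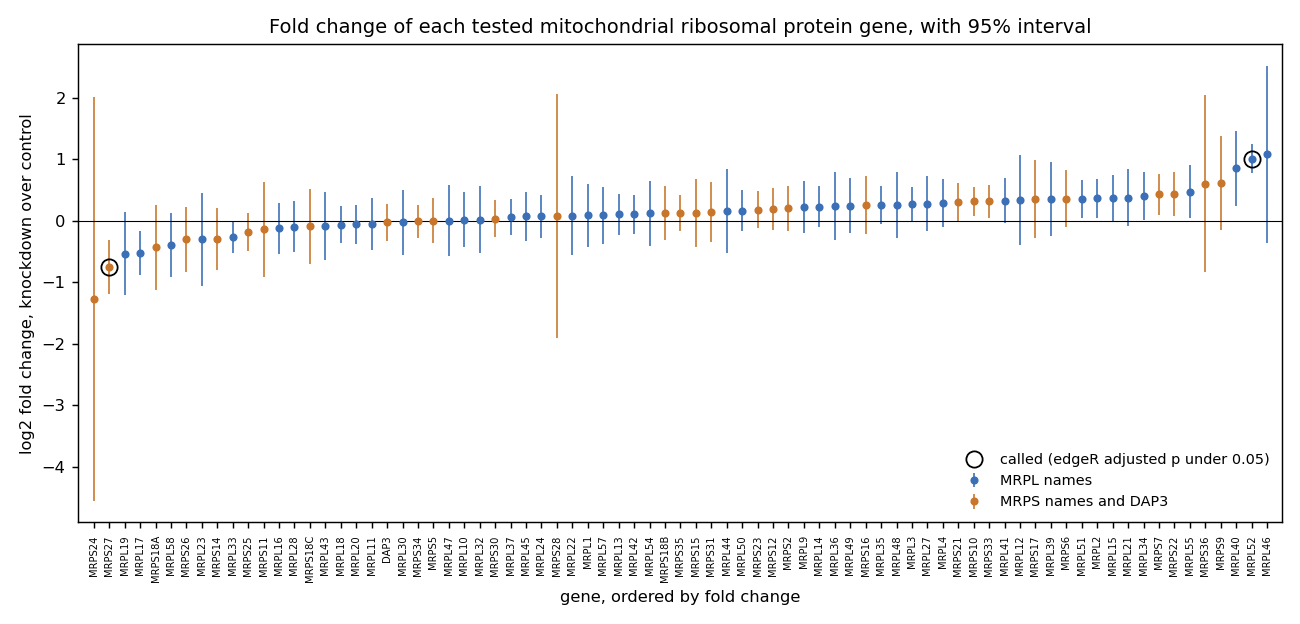
Log2 fold change (knockdown over control) of the 77 tested genes with 95% intervals, ordered by size. Most points lie between -0.5 and 0.5, MRPL52 and MRPS27 are circled as called, and the widest bars belong to genes with few reads such as MRPS24 and MRPS28.

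The precision allows bounds on the change of the tested members, called or not. The standard errors of the log2 fold changes ran from 0.11 to 1.55 with a median of 0.20. For 65 of 77 members the 95% interval excluded a change of 2-fold in either direction, and for 31 it excluded a change of 1.5-fold. The other 12 intervals, those of the called MRPL52 and MRPS27 among them, reached 2-fold or beyond, so a change of that size was not excluded there.

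The median was small and positive under both kinds of name. The genes with MRPL names had a median log2 fold change of 0.12 (35 of 47 positive, 1 higher and 0 lower), and those with MRPS names or DAP3 had 0.13 (20 of 30 positive, 0 higher and 1 lower). Summed over all 79 genes, the level was 4465, 4452 and 4574 CPM in control libraries 1, 2 and 3 and 5099, 4795 and 5172 CPM in knockdown libraries 1, 2 and 3. Every knockdown library lay above every control library, by a ratio of group means of 1.117. The sum is weighted to abundant genes, and the median log2 CPM over the same genes overlapped between the groups, at 5.51, 5.31 and 5.49 in the controls and 5.60, 5.48 and 5.49 in the knockdown. For the MRPS names and DAP3 that median was lower in knockdown 2 (5.32) than in any control (5.53 to 5.69). The ratio of sums was 1.133 for the MRPL names and 1.094 for the MRPS names and DAP3. Without MRPL52 and MRPS27 it was 1.093 for the remaining genes. Scaling by library size alone gave 1.17 for all 79 genes. These sums carry no test, since the members were chosen with earlier results known.

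**Figure D2:**
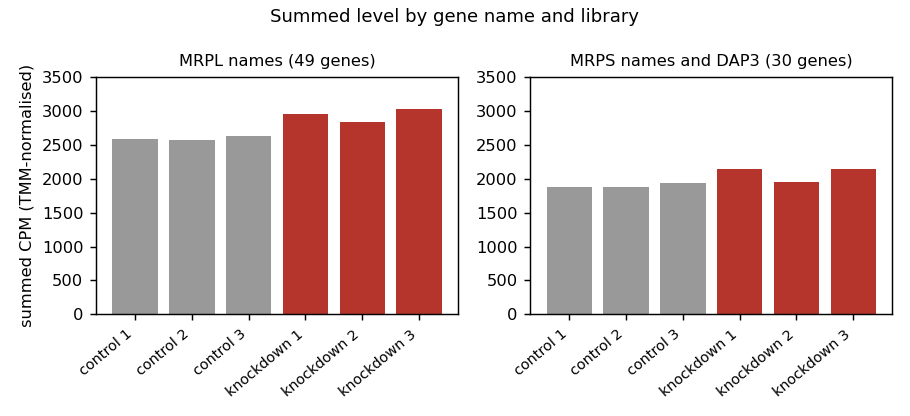
Summed CPM of the 49 MRPL genes (left) and of the 30 MRPS genes and DAP3 together (right) in each library, controls in grey and knockdown in red. The MRPL sums run from 2569 to 2632 in the controls and from 2845 to 3032 in the knockdown, and the MRPS sums from 1872 to 1941 and from 1950 to 2144.

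MRPL52, a protein found in mitochondrial but not bacterial ribosomes, was the member that rose. It stood at 141.6, 135.4 and 141.3 CPM in control libraries 1, 2 and 3 and at 280.0, 283.0 and 281.8 CPM in knockdown libraries 1, 2 and 3. The libraries of each group lay close together and the groups were far apart, at 139 ± 3.48 and 282 ± 1.49 CPM (mean ± SD of 3 libraries). This gave a log2 fold change of 1.01 (SE 0.11, 95% interval 0.78 to 1.25), with an edgeR adjusted p of 1.25e-05. The call held in all 6 fits that left out a library (0.99 to 1.03).

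MRPL52 (ENSG00000172590) spans bases 22829879 to 22835037 of chromosome 14 on the plus strand of GRCh38. Its start lies 59 bases from that of SLC7A7 on the other strand, so the MRPL52 window printed above also holds the start of SLC7A7. SLC7A7 encodes a light chain of a cationic amino acid exchanger. It stood at 22.4, 25.5 and 33.6 CPM in the controls and at 183.3, 138.4 and 157.1 CPM in the knockdown, without overlap (log2 fold change 2.56, SE 0.18, edgeR adjusted p = 1.07e-07). On the same strand as MRPL52, the protease gene MMP14 begins 1520 bases downstream. MMP14 stood at 1.45 ± 0.828 CPM in the controls and 6.06 ± 1.89 CPM in the knockdown and was not called (log2 fold change 2.06, edgeR adjusted p = 0.0946). By the gene positions used here, MRPL52 shares 0 of its 3213 exon bases with other genes on either strand. The strand setting of the counting is not given in the sources used here. The part of SLC7A7 and MMP14 in the MRPL52 count was not tested.

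Close pairs of this kind were common among the members. An opposite-strand protein-coding gene began within 1000 bases of the start of 29 of the 77 tested members, or 37.7%, against 18.4% of the 11148 protein-coding genes tested. Of the 26 of these neighbours that were tested, SLC7A7 was the 1 called (3.85%, against 10.8% of all genes tested). MRPL46 and MRPS11 are themselves such a pair, with starts 34 bases apart and log2 fold changes of 1.09 and -0.14, neither called.

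MRPS27, a pentatricopeptide repeat protein of the small subunit, was the member that fell. It stood at 45.2, 46.7 and 40.6 CPM in the controls and at 29.9, 25.6 and 23.1 CPM in the knockdown. The groups did not overlap, at 44.2 ± 3.19 and 26.2 ± 3.45 CPM, and the log2 fold change was -0.75 (SE 0.20, 95% interval -1.19 to -0.32, edgeR adjusted p = 0.0259). The call was held only in the fit without knockdown 1 (-0.86). It was lost without knockdown 2 (-0.72), knockdown 3 (-0.66), control 1 (-0.74), control 2 (-0.71) or control 3 (-0.81), with edgeR adjusted p-values up to 0.115. MRPS27 (ENSG00000113048) spans bases 72219409 to 72320646 of chromosome 5 on the minus strand. PTCD2, which overlaps its start on the other strand, stood at 17.9 ± 2.37 and 14.3 ± 3.24 CPM and was not called (log2 fold change -0.32). PTCD2 begins at base 72320367, inside the MRPS27 window printed above.

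**Figure D3:**
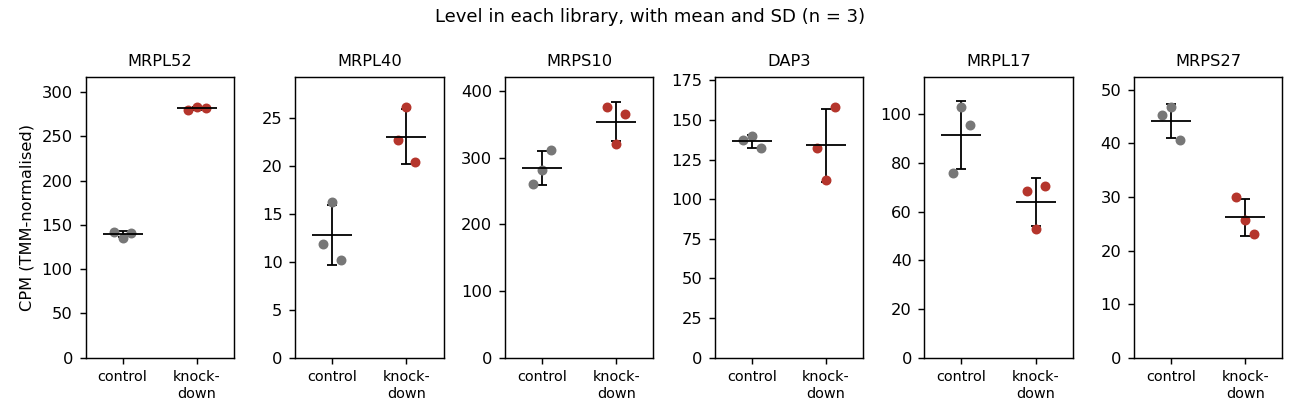
CPM in each library for 6 genes, with the mean and SD of each group (n = 3) and each vertical axis from 0. MRPL52 and MRPS27 separate fully by group, MRPL40, MRPS10 and MRPL17 separate but were not called, and DAP3 overlaps.

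Beyond the 2 called genes, several members separated by group without passing the test. Of all 77 tested members, 13 lay above and 4 below without overlap, where 13.3% and 15.6% of all genes did. MRPL40, a large subunit protein, stood at 11.85, 16.3 and 10.2 CPM in the controls and 22.7, 26.2 and 20.4 CPM in the knockdown (log2 fold change 0.85, SE 0.29, edgeR adjusted p = 0.0723). MRPS10, which has the highest mean level, stood at 260.9, 281.0 and 311.1 CPM in the controls and 375.9, 320.9 and 365.8 CPM in the knockdown (log2 fold change 0.32, SE 0.11, edgeR adjusted p = 0.089). In both genes every knockdown library lay above every control library. DESeq2 called both, at adjusted p-values of 0.0469 for MRPL40 and 0.03 for MRPS10, and MRPS10 also passed without knockdown 2 (0.40) or with scaling by library size alone (0.38). MRPL40 lies within the spans of C22orf39 and HIRA on the other strand, without shared exon bases. C22orf39 fell from 29.2 ± 1.85 to 14.7 ± 4.58 CPM (-0.99, edgeR adjusted p = 0.0314), and HIRA stood at 70.6 ± 1.21 and 55.6 ± 6.71 CPM and was not called (-0.34, edgeR adjusted p = 0.211). MRPL17, named after its values were seen, stood at 75.9, 102.9 and 95.6 CPM in the controls and at 68.5, 52.8 and 70.4 CPM in the knockdown (-0.52, SE 0.17, edgeR adjusted p = 0.0643).

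MRPS7 and MRPS22, also named after their values were seen, likewise lay higher in every knockdown library. MRPS7, which binds the small subunit rRNA, stood at 61.9, 55.7 and 74.95 CPM in the controls and at 84.1, 90.6 and 85.6 CPM in the knockdown (log2 fold change 0.44, edgeR adjusted p = 0.0952). MRPS22 stood at 53.0, 44.8 and 44.8 CPM and at 67.4, 68.4 and 57.5 CPM (log2 fold change 0.44, edgeR adjusted p = 0.119). Single libraries added calls for MRPL21 without knockdown 1 (0.62) and for MRPL34 (0.59) and MRPL55 (0.70) without knockdown 2. Those 3 overlapped between the groups when all libraries were used.

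The largest and smallest fold changes also took in members that were not called. MRPL46 stood at 1.65, 2.25 and 5.29 CPM in the controls and 2.50, 10.63 and 6.29 CPM in the knockdown, which overlap (log2 fold change 1.09, SE 0.68). MRPL19 stood at 26.3, 17.2 and 23.0 CPM and at 21.8, 10.3 and 13.9 CPM, which also overlap (-0.53, SE 0.32). MRPS24 had 34 counts in the controls and 13 in the knockdown, all of the latter in knockdown 3 (-1.27, SE 1.55). MRPS28, in the middle of the range but among the lowest in level, had 66 and 79 counts (0.08, SE 0.94). None of these 4 was called.

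Members with a known further role or place overlapped between groups and were not called. DAP3, a GTP-binding protein of the small subunit first described in cell death, stood at 137.3, 140.1 and 132.1 CPM in the controls and 132.2, 112.1 and 158.1 CPM in the knockdown (log2 fold change -0.03, 95% interval -0.33 to 0.27). MRPL12, the stalk protein that recruits translation factors, stood at 10.9 ± 2.75 and 13.8 ± 3.36 CPM (log2 fold change 0.34). MRPL58, which releases peptides from stalled ribosomes, stood at 33.9 ± 3.68 and 25.8 ± 7.89 CPM (-0.39). MRPL44, a relative of RNase III, had a log2 fold change of 0.16 and MRPL28 one of -0.09. MRPS30 stood at 99.6 ± 10.7 and 102 ± 8.72 CPM (0.04). MRPS36 stood at 3.71, 5.11 and 5.54 CPM in the controls and at 9.39, 11.56 and 0.83 CPM in the knockdown, where knockdown 3 was the lowest of all 6 libraries (log2 fold change 0.61, SE 0.68).

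The 3 MRPS18 paralogs, related to the bacterial small subunit protein of the same number, differed in level but were not called. MRPS18B stood at 56.8 ± 4.02 CPM in the controls and 62.1 ± 18.2 CPM in the knockdown (log2 fold change 0.13), MRPS18A at 18.2 ± 5.63 and 13.5 ± 3.05 CPM (-0.43), and MRPS18C at 16.6 ± 2.19 and 15.6 ± 2.38 CPM (-0.09). Per kilobase of annotated exon, their mean levels over the 6 libraries were 31.5, 12.4 and 3.31 CPM, and per kilobase of the median protein-coding transcript 38.8, 17.2 and 24.2 CPM, so the order of MRPS18A and MRPS18C depends on the length used.

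Levels within the ribosome spread widely, although the finished particle holds about the same number of most proteins. Per kilobase of exon the highest mean levels were those of MRPS10 (151.3 CPM), MRPL14 (146.5 CPM), MRPL33 (127.0 CPM), MRPS34 (127.0 CPM) and MRPL18 (73.0 CPM). The lowest among the tested members were MRPS24 (0.333 CPM), MRPL46 (0.741 CPM) and MRPS28 (1.46 CPM). With the median transcript length, MRPL33 came first (423.9 CPM) and MRPL52 next (284.3 CPM). None of the 5 abundant genes was called, with log2 fold changes of 0.32, 0.23, -0.26, -0.005 and -0.06 for MRPS10, MRPL14, MRPL33, MRPS34 and MRPL18.

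The filter left out MRPL38 and MRPL53. MRPL38 had 6 counts in the controls and 22 in the knockdown, and MRPL53 had 6 and 1. MRPL38 shares 37.5% of its exon bases with a gene on the same strand, ENSG00000267426, and MRPL53 shares 45.2% with CCDC142. Across the 79 genes, 16 shared exon bases with another same-strand gene, with a median level of 30.5 CPM against 56 CPM for the rest. All 5 genes with a mean below 5 CPM were among the 16: MRPL53, MRPL38, MRPS24, MRPS28 and MRPL46. Yet MRPL33, with 21.1% shared, was among the most abundant. Named pseudogenes exist for 37 members, and for 6 of them (MRPL3, MRPL9, MRPL35, MRPL53, MRPS18C and MRPS36) these held more than 10% of the member's own counts. How the authors assigned reads that fit several genes is not given in the sources used here, so the counts of these genes are uncertain.

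**Figure D4:**
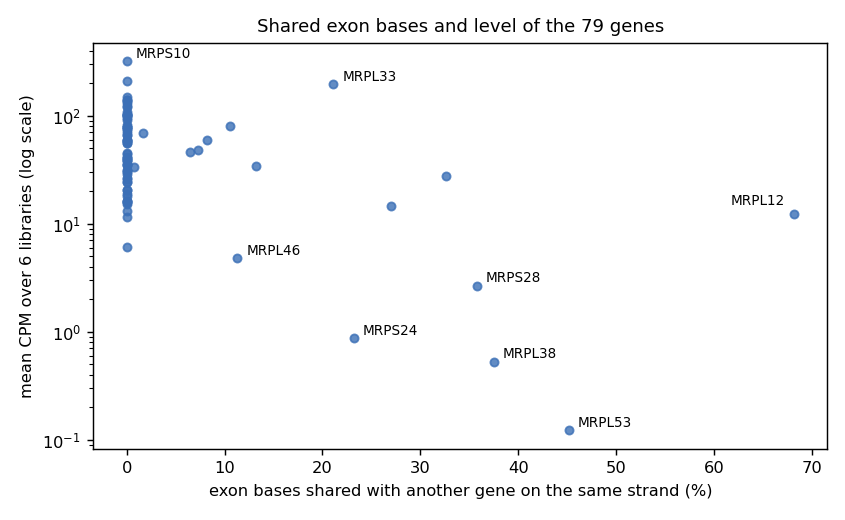
Mean CPM over the 6 libraries (log scale) of the 79 genes against the percentage of their exon bases shared with another gene on the same strand. The 5 genes below 5 CPM all share exon bases, while MRPL33 and MRPL12 share 21.1% and 68.2% and stand higher.

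For the cytosolic ribosomal protein genes more calls were made. Of 77 tested, 27 fell and 0 rose, where 5.56% and 5.19% of all genes did. Of these 77, 67 had a negative log2 fold change, and their median was -0.30. For the mitochondrial set 1 fell and 1 rose, 22 were negative and the median was 0.13. No test was made of this difference between sets.

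**Figure D5:**
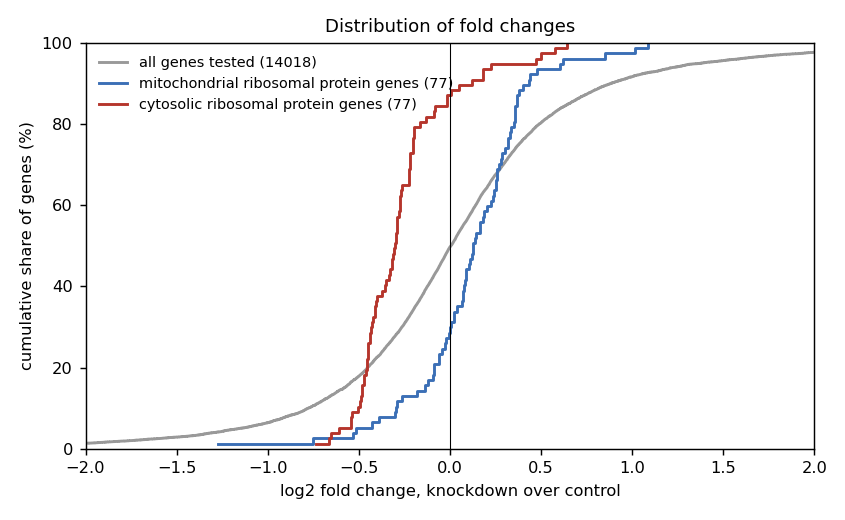
Cumulative share of genes by log2 fold change (knockdown over control) for all genes tested, the 77 mitochondrial and the 77 cytosolic ribosomal protein genes, drawn from -2 to 2. The mitochondrial curve crosses its midpoint at 0.13 and the cytosolic one at -0.30, and both are steeper than the curve of all genes.

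Of 4 mitochondrial ribosomal proteins that carry other names, PTCD3 fell, where 5.56% of all genes tested did. PTCD3, like MRPS27 a pentatricopeptide repeat protein of the small subunit, stood at 106.3, 126.7 and 121.2 CPM in the controls and at 87.3, 67.6 and 66.9 CPM in the knockdown, without overlap (log2 fold change -0.68, SE 0.15, edgeR adjusted p = 0.00805). Its call was lost without knockdown 3 (-0.59) or control 2 (-0.63). AURKAIP1, CHCHD1 and GADD45GIP1 had log2 fold changes of 0.12, 0.15 and 0.12 and were not called.

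Factors that work with the ribosome went both ways. For comparison, 5.19% of all genes tested rose and 5.56% fell. Of 18 translation factors, 2 rose and 1 fell (median log2 fold change 0.01). TUFM, the elongation factor that brings tRNAs, rose from 258 ± 10 to 347 ± 39.3 CPM (log2 fold change 0.43), and GUF1, a GTPase that acts on the elongating ribosome, rose from 71.2 ± 10.3 to 110 ± 5.32 CPM (0.62). OXA1L, which inserts new proteins into the inner membrane, fell from 325 ± 30 to 240 ± 40.9 CPM (-0.44). Of 30 assembly and rRNA modification genes, 1 rose and 0 fell (median 0.06), namely RCC1L, from 27.0 ± 1.5 to 42.8 ± 4.92 CPM (0.66). TUFM lost its call without knockdown 3 (0.35), control 1 (0.42), control 2 (0.45) or control 3 (0.40), and GUF1 without control 1 (0.55) or control 3 (0.56). OXA1L was called only without knockdown 1 (-0.58, and -0.51 to -0.32 in the other 5 fits) and RCC1L only without knockdown 2 (0.76, and 0.58 to 0.70 in the other 5).

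Among 22 mitochondrial aminoacyl-tRNA synthetases and amidotransferase subunits, 3 rose and 0 fell (median log2 fold change 0.10). Over all genes tested, 5.19% rose and 5.56% fell. LARS2, the leucine enzyme, rose from 5.02 ± 0.863 to 13.6 ± 2.67 CPM (1.43), GATB from 15.8 ± 3.94 to 28.8 ± 4.39 CPM (0.87) and GARS1, which serves both cytosol and mitochondria, from 103 ± 25.1 to 178 ± 11.1 CPM (0.78). GARS1 was called in all 6 fits that left out a library. LARS2 lost its call without knockdown 3 (1.30), control 1 (1.57), control 2 (1.33) or control 3 (1.40). GATB was called only without control 3 (1.09, and 0.75 to 1.00 in the other 5).

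Where 10.8% of all genes tested were called, 1 of the 2 rRNAs and 13 mRNAs of mitochondrial DNA itself passed the test. Its tRNAs were not among the genes listed. The large and small rRNAs, MT-RNR2 and MT-RNR1, stood at 51820 ± 14900 and 3117 ± 764 CPM in the controls and 35670 ± 9380 and 2340 ± 751 CPM in the knockdown, with overlapping groups (log2 fold changes -0.54 and -0.41, edgeR adjusted p = 0.058 and 0.177). MT-RNR2 passed without knockdown 3 (-0.72) or control 2 (-0.72), and MT-RNR1 without knockdown 3 (-0.69). Both passed without a filter (-0.53 and -0.41), and MT-RNR2 also with limma-voom (-0.55) but not with DESeq2 (-0.52, adjusted p = 0.346). Per the labels the library kit was one for mRNA, so these values need not follow the rRNA content. Of 13 mitochondrial mRNAs, 1 fell and 0 rose (median 0.07). It was MT-CO3, a subunit of cytochrome oxidase, at 12110 ± 624 and 9119 ± 937 CPM (-0.41, SE 0.08, edgeR adjusted p = 0.00182).

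Of 23 genes for transcription and RNA processing in mitochondria, 1 fell and 0 rose (median log2 fold change 0.00). Among all genes tested, 5.56% fell and 5.19% rose. TFAM, which packages mitochondrial DNA and starts its transcription, fell from 117 ± 13.7 to 81.2 ± 12.4 CPM (-0.53, edgeR adjusted p = 0.0359), a call held only without knockdown 1 (-0.66, and -0.60 to -0.44 in the other 5 fits). Of 10 nuclear regulators of mitochondrial genes, 1 rose and 1 fell (median -0.20). PPARGC1A, a coactivator of mitochondrial biogenesis, rose from 0, 0.10 and 0 CPM in the controls to 14.7, 20.0 and 17.3 CPM in the knockdown, and MYC fell by 0.69 on the log2 scale. YY1 stood at 218 ± 6.90 and 188 ± 11.3 CPM (-0.21), GABPA at 103 ± 26.5 and 87.6 ± 8.48 CPM (-0.23) and NRF1 at 25.8 ± 1.14 and 20.2 ± 7.60 CPM (-0.35), none of them called. The log2 fold change was positive for 4 of the 10 regulators. ESRRA stood at 5.88 ± 1.33 and 11.9 ± 1.65 CPM, higher in every knockdown library but not called (1.02, edgeR adjusted p = 0.123). PPARGC1B (0.19) and PPRC1 (0.12) were not called either.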

How the data were processed

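RNA sequencing of 6 libraries was analysed. The authors deposited raw counts of reads by Ensembl identifier for each library. HISAT2 2.1.0, featureCounts 1.6.3 and the builds GRCh38 and GRCm38 are named, without roles, in the submitters' processing notes. Per the labels' protocols, a stranded mRNA kit was used. Which annotation and strand setting were used is not given in the sources used here. Symbols, positions and exon lengths came from GENCODE release 29, which held 58039 of 58302 identifiers, with current symbols for 57532.

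The counts went into edgeR 4.0.16 (R 4.3.3), quasi-likelihood F test (TMM, filterByExpr with a minimum count of 10 and a minimum total of 15, group as the only term, two-sided), which kept 14018 genes. P-values were adjusted over all of them by the Benjamini-Hochberg method, and genes were called at 0.05. Intervals are 95%. Alternatives used limma 3.58.1 (voom), DESeq2 1.42.0, other scalings, filters, thresholds and left-out libraries. The fits were tested on simulated data, in which fewer genes were changed than were called here. There edgeR's share of false calls lay slightly above the nominal level with gene-wise dispersions and below it with trended ones. DESeq2's lay further above, but over fewer simulated draws, too few to rank the tools.

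The members, lists and tests were chosen with earlier results of these data known. Named genes were OSGEP, all called members, the 5 highest and 3 lowest per kilobase of exon, the 3 largest and 3 smallest fold changes, members the filter left out, 10 of known role, both mitochondrial rRNAs, and of each list up to 3 called genes or, with none called, 2 abundant ones. Every other gene in the text (neighbours, markers, regulators whose motifs were searched, uncalled list members and further mitochondrial ribosomal protein genes) lies outside this rule and was named after its values were seen. The labels name no batch. Within-group library pairs had a chi-square per degree of freedom of 10.87 to 27.97, and each library was counted as 1 replicate.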

Additional observations from a re-analysis of the deposited data

How the results depend on the processing

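MRPL52 was called under all 15 alternatives (log2 fold change 0.99 to 1.08), and MRPS27 under 7 of the 9 that kept all libraries. The count of members called lower was 2 without a filter and 2 with protein-coding genes alone (MRPL17 in addition, at -0.51 and -0.53, with adjusted p-values that round to 0.05 and 0.0408), 0 with the replicate block, 0 at an adjusted p under 0.01, and 0 to 1 with 1 library left out. The count called higher was 2 with library size alone, 3 with DESeq2, and 1 to 4 with 1 library left out. Over all genes 823 were called at 0.01 and 870 (without control 3) to 1624 (without knockdown 1) with 1 library left out, with 890 without control 2 and 941 without knockdown 3. The members' median log2 fold change ran from 0.11 to 0.20, and library size alone moved that of all genes from 0.01 to 0.08. Same-numbered libraries did not deviate together (correlations -0.12, -0.06 and -0.04), so the numbers were not taken as pairs. With the replicate block 1072 genes were called, MRPS27 stood at -0.76 (edgeR adjusted p = 0.054) and MT-RNR2 at -0.53 (0.0169). The block also ended the calls of TUFM (0.42), OXA1L (-0.45), RCC1L (0.66), LARS2 (1.43), GATB (0.89) and TFAM (-0.53). So did library size alone for OXA1L (-0.37) and TFAM (-0.46), RLE factors for OXA1L (-0.42), and no filter (0.67) and limma-voom (0.64) for RCC1L. At an adjusted p under 0.01 these 6 and GUF1 were not called.

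Signs turned for members near 0, none of them called. MRPS34 stood at 0.0117 with RLE factors, 0.0672 with library size alone, 2e-04 without a filter, 0.0143 with a mean CPM of at least 5, 0.012 with DESeq2 and 0.0022 with limma-voom. With library size alone DAP3 stood at 0.0395 and MRPL18 at 0.0089. With 1 library left out, MRPS34 ran from -0.0495 to 0.0403, DAP3 from -0.1454 to 0.0978, MRPL18 from -0.1243 to 0.0291, MRPL28 from -0.2383 to 0.0779, MRPS18B from -0.0543 to 0.3515, MRPS18C from -0.1758 to 0.0268, MRPS28 from -0.3928 to 1.6237 and MRPS30 from -0.0502 to 0.12. The cause was not tested. Depth limits members with few reads: MRPL38 and MRPL53 had no interval, and the widest belonged to MRPS24, MRPS28, MRPS36 and MRPL46.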
